A study of Homo sapiens with 18 samples.

Results

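The genes described here are 8 regulators of acid and base balance: the carbonic anhydrases CA2, CA9, CA12 and CA13, the bicarbonate transporters SLC4A2, SLC4A4 and SLC4A7, and basigin (BSG), a chaperone of lactate transporters. They were chosen by name from the 28277 genes of 1 count table, and all 8 had a row in it. The table held RNA-seq counts from OVCAR3-KRAB, an ovarian cancer cell line that stably carries a dead Cas9 joined to the KRAB repressor domain, so that a guide RNA silences the promoter it is directed to (CRISPR interference). Control cells carried a guide against Gal4 (sgCtl), and knockdown (KD) cells carried 1 of 2 guides against the XIST promoter (sgXIST7 or sgXIST9). Each line was cultured in normoxia or for 24 h at 1% oxygen (hypoxia), with 3 replicates in each of the 6 groups and 18 libraries in all. All cells carried dCas9-KRAB and were grown in the same medium with serum. The study's lines were monoclonal, and how many clones lie behind the libraries of a guide is not given in the sources used here. The effect of a guide and the traits of the clones that carry it therefore cannot be told apart, and p-values measure the spread between these libraries, which may be technical.

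Carbonic anhydrases are zinc enzymes that convert carbon dioxide and water into bicarbonate and a proton, and back. CA9 and CA12 sit in the plasma membrane with the active site outside the cell, whereas CA2 and CA13 are cytosolic. The SLC4 proteins move the bicarbonate: SLC4A2 (AE2) exchanges it for chloride, and SLC4A4 (NBCe1) and SLC4A7 (NBCn1) carry it together with sodium. CA9 is a well known target of the hypoxia-inducible factors (HIF), and many tumors that make much lactic acid express it.

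The promoters of 3 members are shown because these genes stand for the patterns in the data: CA9 was called higher in hypoxia in every line, SLC4A7 was lower in hypoxia in every line and past the fold limit in 1, and SLC4A4 was called in sgXIST9 alone. Each sequence gives the 150 bases before the gene's start, 5′ to 3′ on the gene's strand, from RefSeq (GRCh38.p14). Capitals mark the core letters of the hypoxia response element, ACGTG or GCGTG, read on either strand.
CA9, chr9:35673778-35673927, plus strand: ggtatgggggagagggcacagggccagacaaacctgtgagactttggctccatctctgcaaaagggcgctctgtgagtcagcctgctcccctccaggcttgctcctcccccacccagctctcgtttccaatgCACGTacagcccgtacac
SLC4A7, chr3:27484385-27484534, minus strand: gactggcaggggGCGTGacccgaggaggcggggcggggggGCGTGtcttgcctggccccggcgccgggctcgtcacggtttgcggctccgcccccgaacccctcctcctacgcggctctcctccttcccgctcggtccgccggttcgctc
SLC4A4, chr4:71187109-71187258, plus strand: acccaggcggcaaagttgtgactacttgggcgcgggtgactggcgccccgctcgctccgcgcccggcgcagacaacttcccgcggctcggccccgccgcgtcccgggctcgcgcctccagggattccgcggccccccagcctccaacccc

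Over the 250 bases before the start, the CA9 promoter held 1 match, ACGTG on the reverse strand, 18 bases before the start. The SLC4A7 promoter shown held 2 matches to GCGTG, at 138 and 110 bases before the start, and the other listed for this gene held none. None of the 5 SLC4A4 promoters in the table held either motif. The single CA12 promoter held 1 match to GCGTG, on the reverse strand 234 bases before the start. That start, at position 63381846, lies inside the gene as counted, which begins at 63382110. No promoter of CA2 or CA13 was listed. Among the 6 members with a promoter, SLC4A2 and BSG, which were not called in hypoxia in any line, held the most matches. The 4 SLC4A2 promoters had 1 to 7, some of them shared by overlapping windows, and of the BSG promoters 1 had 6 and the other none. Among all 35116 promoters in the table, 18.5% held ACGTG, 32.2% held GCGTG and 43.2% held either. A forward ACGTG that follows a C is also read on the reverse strand 1 base earlier. In the table's annotation, CA12 spans chr15:63321378-63382110 (minus strand), SLC4A2 chr7:151058200-151076527 (plus strand) and BSG chr19:571283-583493 (plus strand), and CA2 and CA13 are on chromosome 8. Counts were summed over the exons of each gene, untranslated regions included.

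The libraries held 11794375 to 24906936 counts in genes. XIST was at 0 to 5 counts in the sgXIST7 libraries, and its mean was 9.39% of sgCtl in sgXIST9 normoxia and 13.6% in sgXIST9 hypoxia. Of 10 well known hypoxia-induced genes, 8 rose in sgCtl and 9 in each KD line. Of 12 epithelial and ovarian carcinoma markers, EPCAM, KRT8, KRT18 and PAX8 were present in every library, whereas WFDC2, CDH1, KRT7 and SOX17 were at 3 counts or fewer in all of them. Of 11 markers of blood, vessel and stromal cells, only CD68 was above 3 counts in every library. The replicate 3 library of hypoxia stood apart in sgCtl and sgXIST9. It correlated with replicates 1 and 2 across genes at 0.964 and 0.953 in sgCtl, against 0.987 between those 2, and at 0.98 and 0.967 in sgXIST9, against 0.988. In sgXIST7 these values were 0.975 and 0.984 against 0.987, less apart from the 0.984 to 0.993 within normoxia groups. Since replicate 3 was also the highest or lowest hypoxia library of several members, results that rest on it are also given without the 3 hypoxia libraries of replicate 3.

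Levels were compared between members as normalized CPM (library-scaled counts) per kilobase of exon (CPM per kb), which corrects for gene length. In sgCtl normoxia, BSG was the most abundant at 115 ± 4.77 CPM per kb (SD, n = 3), followed by SLC4A2 at 36.4 ± 1.14, SLC4A7 at 10.8 ± 0.479 and CA12 at 3.88 ± 0.339. CA13 followed at 1.85 ± 0.279 CPM per kb, then CA2 at 0.749 ± 0.235 and SLC4A4 at 0.461 ± 0.141, whose ranges overlapped, and CA9 was last at 0.0145 ± 0.0251. BSG stayed first in all 6 groups, and CA12 was the most abundant of the 4 carbonic anhydrases in 5 of them. In sgXIST9 hypoxia, CA9 reached 19 ± 9.02 CPM per kb and CA12 11.7 ± 5.05, with overlapping ranges. Within libraries, the ratio of CA9 to CA12 per kb was 0.024 to 0.128 in sgCtl hypoxia, 0.727 to 0.982 in sgXIST7 hypoxia and 1.54 to 1.69 in sgXIST9 hypoxia. These 3 ranges did not overlap, and CA9 was above CA12 in every sgXIST9 hypoxia library.

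**Figure D1:**
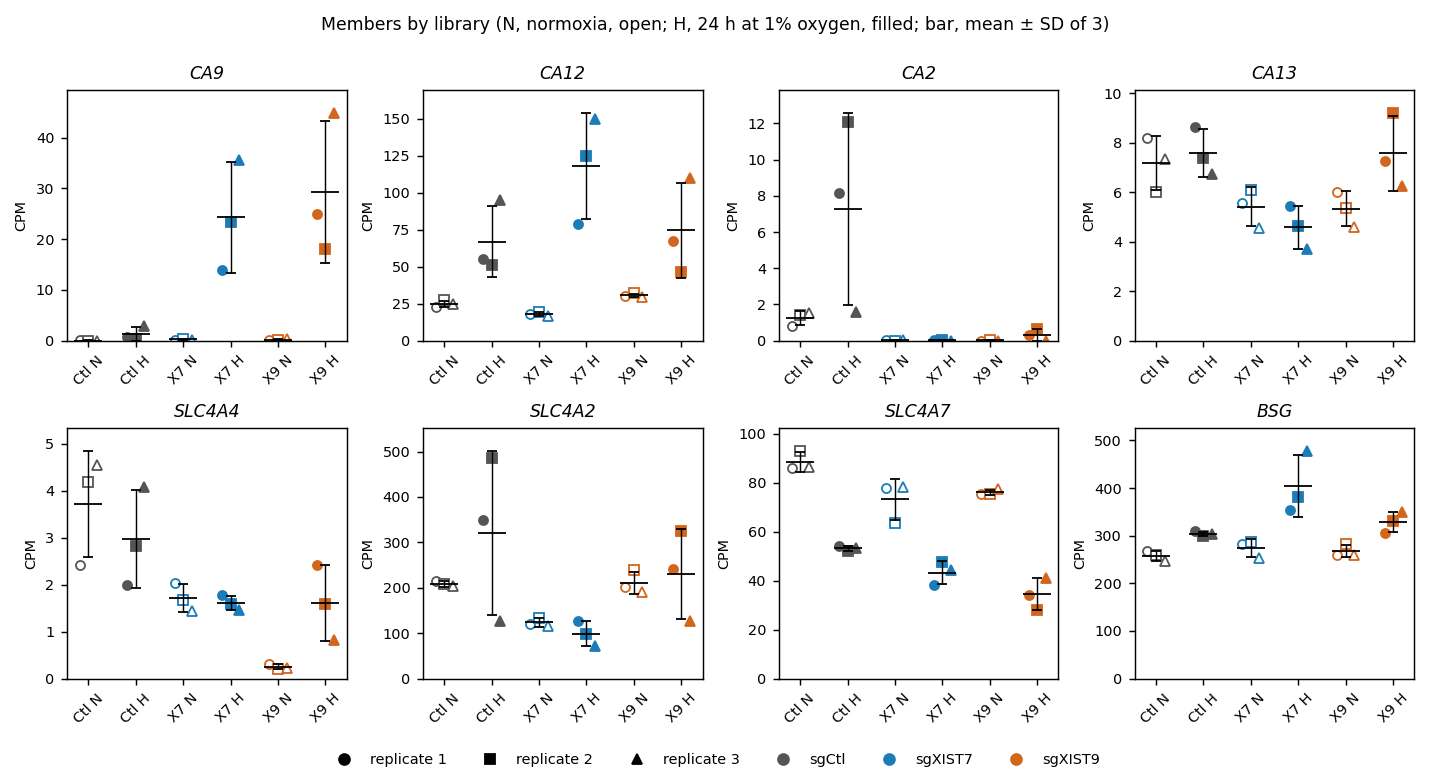
Normalized CPM (linear axes from 0) of the 8 genes in each library of the 6 groups, with sgCtl in grey, sgXIST7 (X7) in blue and sgXIST9 (X9) in orange, normoxia (N) open and hypoxia (H) filled. Bars are the mean ± SD of 3 libraries, and marker shapes give the replicate. CA9 is high in the hypoxia libraries of both KD lines (13.9 to 44.9 CPM). CA2 is higher in the sgCtl libraries of both oxygen levels (0.805 to 12.1 CPM) than in any KD library (at most 0.635 CPM).

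The first question was which members change in hypoxia within each line. A gene was called when its adjusted p was under 0.01 and its log2 fold change beyond 1 in either direction. In sgCtl, 3 of the 8 members rose (CA2, CA9 and CA12) and none fell, where 19.7% of the 14938 genes tested were called. In sgXIST7, CA9 and CA12 rose, where 27.3% of all genes were called. In sgXIST9, CA9, CA12 and SLC4A4 rose and SLC4A7 fell, where 23.3% of all genes were called. With so few members, the shares called (37.5%, 25% and 50%) are given beside the background only as a description. The 3 comparisons share no libraries.

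CA9 had the highest fold changes of the members. In sgCtl it was at 1, 0 and 0 counts in normoxia and at 11, 6 and 33 counts in hypoxia, which is 0.688, 0.298 and 2.92 CPM. In sgXIST7 it went from 0.173, 0.389 and 0.218 CPM in normoxia to 13.9, 23.4 and 35.6 CPM in hypoxia. In sgXIST9 it went from 0.223, 0.212 and 0.234 CPM to 24.9, 18.1 and 44.9 CPM. Hypoxia and normoxia did not overlap in any line, and replicate 3 was the highest hypoxia library in each. The log2 fold change was 6.55 ± 0.65 (SE) in sgXIST7 (93.5-fold, adjusted p = 2.6e-07) and 6.99 ± 0.67 in sgXIST9 (127-fold, adjusted p = 2.3e-07). Without the replicate 3 libraries of hypoxia these were 6.19 and 6.56. In sgCtl the normoxia group held only 1 count in all, and the ratio of summed counts was 47.7, with a 95% interval from 8.18 to 1921 that covers counting error only (exact binomial). The sgCtl test gave an adjusted p of 0.0025. Replicate 3 held 33 of the 50 hypoxia counts, and without the replicate 3 libraries of hypoxia the fitted log2 fold change went from 5.33 to 4.08 (adjusted p = 0.001), values that depend on the prior count. The call was lost in 4 of 14 alternatives, with an adjusted p of at most 0.016, namely without sgCtl normoxia replicate 2 or 3, without sgCtl hypoxia replicate 3 and with no filter on low counts. In bulk RNA, fewer cells that express a gene and less RNA per cell cannot be told apart.

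CA12 was present in every library and rose in every line. In sgCtl it was at 22.9, 27.2 and 24.5 CPM in normoxia and at 54.9, 51.4 and 94.8 CPM in hypoxia. In sgXIST7 it went from 17.8, 19.3 and 16.8 CPM to 79.1, 125 and 150 CPM. In sgXIST9 it went from 30.4, 32 and 29.8 CPM to 67.2, 46.7 and 110 CPM. The 2 oxygen levels were separate in each line, and replicate 3 was again the highest hypoxia library in each. Log2 fold changes were 1.43 ± 0.28 in sgCtl (adjusted p = 0.0005), 2.72 ± 0.29 in sgXIST7 (adjusted p = 6.2e-07) and 1.28 ± 0.28 in sgXIST9 (adjusted p = 0.00095). Without the replicate 3 libraries of hypoxia, the values were 1.1, 2.52 and 0.90, and the sgXIST9 value then fell short of the fold limit at an adjusted p of 0.0002.

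CA2, the fast cytosolic enzyme, rose in sgCtl but rested on few libraries. It was at 0.805, 1.39 and 1.55 CPM in sgCtl normoxia and at 8.13, 12.1 and 1.59 CPM in sgCtl hypoxia. Replicate 3 of hypoxia was thus barely above the highest normoxia library. In sgCtl the change was 2.55 ± 0.61 on the log2 scale (5.85-fold, adjusted p = 0.0024), and 3.01 ± 0.33 without the replicate 3 libraries. The call was lost when sgCtl normoxia replicate 1 (adjusted p = 0.016) or sgCtl hypoxia replicate 2 (adjusted p = 0.019) was left out, and when only the 2 groups were fitted (adjusted p = 0.015). In sgXIST7, CA2 was at 0 or 1 count in all 6 libraries, so no fold is given. In sgXIST9 it was at 0, 1 and 0 counts in normoxia and at 7, 14 and 0 counts in hypoxia, a ratio of summed counts of 20.5 (95% interval 3.29 to 847, counting error only). That difference was not called (adjusted p = 0.026), but was called without the replicate 3 libraries of hypoxia (adjusted p = 0.00021).

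CA13, the other cytosolic enzyme, was not called in any line. Its libraries spanned 3.71 to 9.21 CPM over all 6 groups, and the log2 fold changes in hypoxia were 0.08 ± 0.20 in sgCtl, -0.23 ± 0.21 in sgXIST7 and 0.50 ± 0.20 in sgXIST9. In sgXIST9 all 3 hypoxia libraries (6.25 to 9.21 CPM) were above the 3 normoxia libraries (4.61 to 6.03 CPM), at an adjusted p of 0.043.

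Among the bicarbonate transporters, SLC4A7 was lower in hypoxia in all 3 lines. It was at 85.9, 93 and 86.6 CPM in sgCtl normoxia and at 54.2, 52.1 and 53.2 CPM in sgCtl hypoxia. In sgXIST7 the values were 77.8, 63.5 and 78.3 CPM in normoxia and 38.2, 47.5 and 44.2 CPM in hypoxia. In sgXIST9 they were 75.4, 75.4 and 77.3 CPM against 34.1, 28.1 and 41.2 CPM. No hypoxia library reached the lowest normoxia library of its line. The log2 fold change was -1.14 ± 0.13 in sgXIST9 (adjusted p = 1.2e-06), past the fold limit. It was -0.74 ± 0.13 in sgCtl (adjusted p = 0.00013) and -0.76 ± 0.13 in sgXIST7 (adjusted p = 6.8e-05), past the p threshold but inside the fold limit.

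SLC4A4 was called in hypoxia only in sgXIST9, where its normoxia level was low. Its normoxia libraries in that line were at 0.312, 0.212 and 0.234 CPM (7, 4 and 4 counts), and its hypoxia libraries at 2.42, 1.59 and 0.82 CPM (53, 35 and 13 counts). On the log2 scale it rose by 2.64 ± 0.44 (6.24-fold, adjusted p = 7.8e-05), and 2.94 ± 0.38 without the replicate 3 libraries of hypoxia. In sgCtl the gene was at 2.42, 4.18 and 4.54 CPM in normoxia and at 2, 2.83 and 4.08 CPM in hypoxia, overlapping ranges with a log2 fold change of -0.34 ± 0.34. In sgXIST7 the ranges overlapped too, with a log2 fold change of -0.08 ± 0.35.

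SLC4A2 was not called in any line, and its hypoxia libraries were widely spread. In sgCtl it was at 216, 209 and 203 CPM in normoxia and at 350, 485 and 127 CPM in hypoxia. In sgXIST9 it was at 202, 239 and 191 CPM in normoxia and at 242, 324 and 126 CPM in hypoxia. Replicate 3 was the lowest hypoxia library in all 3 lines, at 0.304 of the mean of replicates 1 and 2 in sgCtl, 0.636 in sgXIST7 and 0.447 in sgXIST9. In sgCtl its log2 fold change was 0.62 ± 0.36 (adjusted p = 0.16), and without the replicate 3 libraries it was 1.00 ± 0.15 (adjusted p = 2.9e-05), just past the fold limit.

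BSG was not called in any line. It was at 247 to 268 CPM in sgCtl normoxia and at 300 to 309 CPM in sgCtl hypoxia. In sgXIST7 it was at 253 to 287 CPM in normoxia and at 353 to 478 CPM in hypoxia, and in sgXIST9 at 260 to 282 CPM against 306 to 349 CPM. Hypoxia libraries were above normoxia libraries in every line, yet the log2 fold changes were small, at 0.24 ± 0.11 in sgCtl, 0.56 ± 0.11 in sgXIST7 (adjusted p = 0.00024) and 0.30 ± 0.11 in sgXIST9.

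**Figure D2:**
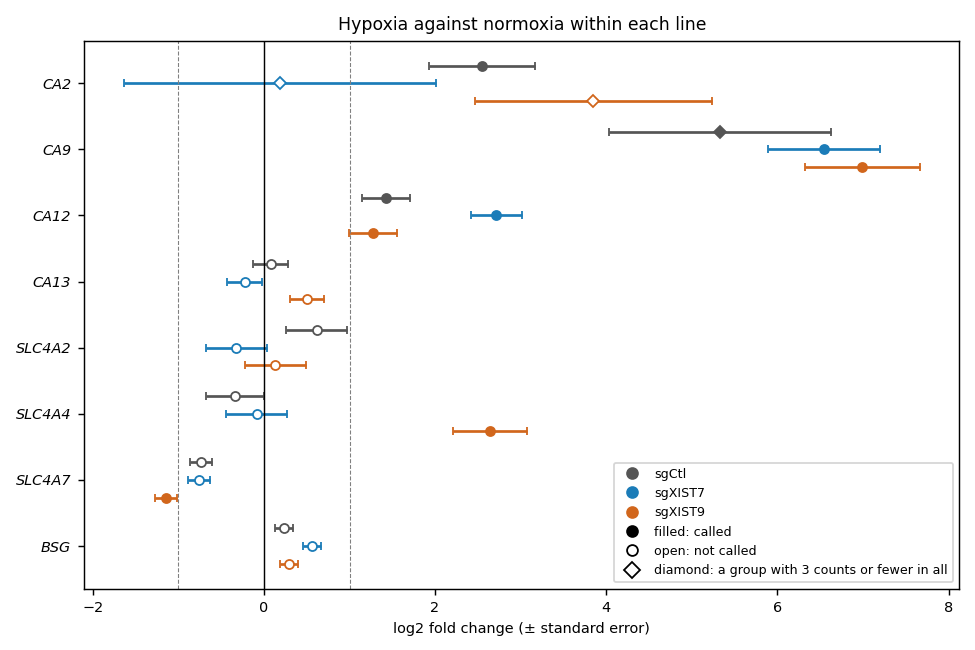
Log2 fold change of hypoxia against normoxia for the 8 genes in sgCtl (grey), sgXIST7 (blue) and sgXIST9 (orange), with standard errors. Filled symbols were called, diamonds mark a comparison in which a group held 3 counts or fewer in all, and dashed lines show the fold limit. CA9 and CA12 lie to the right of the fold limit in all 3 lines, and SLC4A7 lies left of 0 in all 3.

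The second question was how the KD lines differ from sgCtl at the same oxygen level. Both comparisons at one oxygen level use the same sgCtl libraries, so their values are given side by side and are not independent. In normoxia, CA2 was lower in sgXIST7 (1 of 8 members, where 7.76% of all genes were called), and CA2 and SLC4A4 were lower in sgXIST9 (2 of 8, where 7.7% were called). In hypoxia, CA2 and SLC4A2 were lower and CA9 was higher in sgXIST7 (3 of 8, where 14% were called), whereas CA2 was lower and CA9 higher in sgXIST9 (2 of 8, where 9.53% were called).

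CA2 was close to absent from both KD lines. It summed to 57 counts over the sgCtl normoxia libraries, to 2 in sgXIST7 and to 1 in sgXIST9, ratios of 40.4 (95% interval 10.7 to 341, counting error only) and 73.5 (12.7 to 2953). The adjusted p was 0.0019 for sgXIST7 and 0.0017 for sgXIST9. The sgXIST7 call was lost when any 1 of its normoxia libraries was left out (adjusted p up to 0.011), and the sgXIST9 call without its normoxia replicate 1 or 3 (up to 0.013). In hypoxia it summed to 391 counts in sgCtl, 2 in sgXIST7 and 21 in sgXIST9. The ratio of sgCtl to sgXIST7 was 225 (61.9 to 1864, adjusted p = 1.4e-05), and the log2 fold change in sgXIST9 was -4.41 ± 0.70 (adjusted p = 0.00013). When only these groups were fitted, the sgXIST9 value was again -4.41 but was not called (adjusted p = 0.023).

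CA9 was higher in both KD lines in hypoxia, where all KD libraries (13.9 to 44.9 CPM) were above all sgCtl libraries (0.298 to 2.92 CPM). The log2 fold change was 4.37 ± 0.56 in sgXIST7 (20.7-fold, adjusted p = 1.4e-05) and 4.65 ± 0.56 in sgXIST9 (25.1-fold, adjusted p = 9.2e-06). Both were larger, 5.28 and 5.48, without the replicate 3 libraries of hypoxia, and both held in each of 15 alternatives. In normoxia CA9 was at 4 to 7 counts in every KD library against 1, 0 and 0 in sgCtl. Those differences were not called (adjusted p = 0.21 and 0.25), and the ratios of summed counts were 11.3 (1.76 to 474) in sgXIST7 and 10.1 (1.51 to 428) in sgXIST9.

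CA12 was not called between a KD line and sgCtl at either oxygen level. The largest of these differences was in sgXIST7 hypoxia, with a log2 fold change of 0.82 ± 0.27 (adjusted p = 0.024). Without the replicate 3 libraries of hypoxia it was 0.95 ± 0.18 (adjusted p = 0.00042), still inside the fold limit. It was called when only sgCtl hypoxia replicate 3 (1.15, adjusted p = 0.0026) or sgXIST7 hypoxia replicate 1 (1.04, adjusted p = 0.0065) was left out. CA13 was not called in these comparisons either, and its largest difference was -0.71 ± 0.21 in sgXIST7 hypoxia (adjusted p = 0.011).

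SLC4A4 was lower in sgXIST9 normoxia than in sgCtl normoxia, at a log2 fold change of -3.82 ± 0.43 (14.2-fold lower, adjusted p = 3.6e-06). The other difference of this gene in normoxia, in sgXIST7, was -1.11 ± 0.34 and was not called (adjusted p = 0.027), although the libraries did not overlap. In hypoxia it was -0.86 ± 0.35 in sgXIST7 and -0.85 ± 0.35 in sgXIST9, and neither was called.

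SLC4A2 was lower in sgXIST7 hypoxia, at 127, 97.6 and 71.4 CPM, than in sgCtl hypoxia. Its log2 fold change was -1.70 ± 0.37 (3.25-fold lower, adjusted p = 0.0015), and -1.89 ± 0.17 without the replicate 3 libraries of hypoxia. The 2 groups overlapped, since sgCtl replicate 3 (127 CPM) was level with the highest sgXIST7 library. The call was lost without sgCtl hypoxia replicate 2 (adjusted p = 0.014) or sgXIST7 hypoxia replicate 3 (adjusted p = 0.011), when only these 2 groups were fitted (adjusted p = 0.026), and with no filter on low counts (adjusted p = 0.01, just above the threshold). In normoxia too, SLC4A2 was lower in sgXIST7, at 120, 134 and 117 CPM against 216, 209 and 203 CPM in sgCtl, without overlap. That normoxia difference had a log2 fold change of -0.76 ± 0.36 and was not called (adjusted p = 0.15). SLC4A7 and BSG stayed inside the fold limit in all 4 comparisons, at log2 fold changes from -0.63 to -0.22 and from 0.05 to 0.41. The lowest of these for SLC4A7, in sgXIST9 hypoxia, had an adjusted p of 0.0012, and the highest for BSG, in sgXIST7 hypoxia, of 0.0054.

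**Figure D3:**
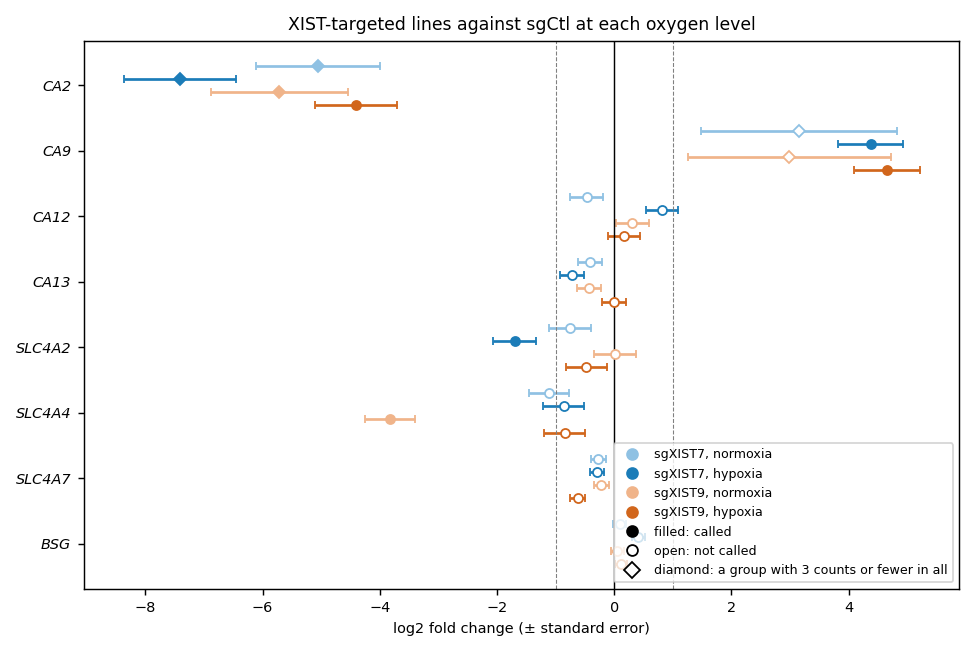
Log2 fold change of each XIST-targeted line against sgCtl for the 8 genes, in normoxia (pale) and hypoxia (dark), with sgXIST7 in blue, sgXIST9 in orange and standard errors. Symbols are as for the hypoxia comparison. CA2 lies far left in all 4 comparisons, CA9 is called on the right only in hypoxia, and SLC4A4 is called only in sgXIST9 normoxia.

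The 2 KD lines were also compared with each other. In normoxia, SLC4A4 was higher in sgXIST7 than in sgXIST9 by a log2 fold change of 2.71 ± 0.44 (6.55-fold, adjusted p = 0.00042), and was the only 1 of 8 members called, where 3.4% of all genes were called. In hypoxia, edgeR called 0 of 8 members, where 4.46% of all genes were called. At an unadjusted p under 0.05 there were 6, and DESeq2 called 1. The share of all genes at that p, or by DESeq2, is not given here, so these numbers have no background. CA9 was at 24.3 ± 10.9 CPM in sgXIST7 hypoxia and 29.3 ± 13.9 CPM in sgXIST9 hypoxia (SD, n = 3), with overlapping libraries and a log2 fold change of -0.27 ± 0.44 (adjusted p = 0.71). SLC4A2 was at -1.22 ± 0.36 (adjusted p = 0.027), and at -1.33 ± 0.17 without the replicate 3 libraries of hypoxia (adjusted p = 4.1e-05).

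The third question was whether the hypoxia response itself differs between lines, tested as an interaction of line and oxygen. For sgXIST7 against sgCtl, edgeR called 0 of 8 members, where 1.52% of all genes were called. DESeq2 also called 0, and 2 members (CA12 and BSG) had an unadjusted p under 0.05, a number given without a background. The CA12 response was larger in sgXIST7 by 1.29 ± 0.39 (log2, adjusted p = 0.049), and without the replicate 3 libraries of hypoxia the difference was called, at 1.42 ± 0.24 (adjusted p = 0.00047). SLC4A2 was then called as well, at -1.13 ± 0.22 (adjusted p = 0.0013), against -0.94 ± 0.51 with all libraries.

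For sgXIST9 against sgCtl, SLC4A4 was the only 1 of 8 members called, where 1.01% of all genes were called. Its response was larger by 2.98 ± 0.56 (adjusted p = 0.006), and by 3.55 ± 0.49 without the replicate 3 libraries of hypoxia. The call was lost in 10 of 21 alternatives, with an adjusted p of at most 0.026. Among these were the fit of only the 4 groups compared and the loss of any sgXIST9 normoxia library, of replicate 1 or 2 of sgXIST9 hypoxia or sgCtl hypoxia, or of replicate 2 or 3 of sgCtl normoxia.

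Between sgXIST7 and sgXIST9, edgeR called 0 of 8 members, where 0.167% of all genes were called. DESeq2 called 1, and 4 had an unadjusted p under 0.05, again without a background. CA12 was at 1.44 ± 0.39 (adjusted p = 0.081) and SLC4A4 at -2.73 ± 0.57 (adjusted p = 0.024), and both were called without the replicate 3 libraries of hypoxia, at 1.63 and -2.96. The CA9 responses were not shown to differ between sgCtl and either KD line. The fitted differences were 1.21 for sgXIST7 (adjusted p = 0.87) and 1.66 for sgXIST9 (adjusted p = 0.84). They depend on the prior count, since sgCtl normoxia held a single CA9 count, and are given without an error.

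The exact permutation test of 3 libraries against 3 on CPM was run for each member in the 9 comparisons of 2 groups. This exact test is two-sided and cannot go below p = 0.1, which it reached wherever 2 groups did not overlap, as for CA9 in each line's hypoxia comparison.

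The members were set beside 82 other genes of pH regulation, of which 52 passed the filter on low counts. In hypoxia against normoxia, 6 of these rose and 5 fell in sgCtl, 10 rose and 3 fell in sgXIST7, and 8 rose and 4 fell in sgXIST9. These shares of 21.2%, 25% and 23.1% are close to those of all genes tested (19.7%, 27.3% and 23.3%). Over the 52 genes, log2 fold changes had a median of 0.11 in sgCtl, 0.13 in sgXIST7 and 0.25 in sgXIST9, beside 0.02, 0.01 and 0.09 over all genes. Against sgCtl, 6 genes of the list were called in sgXIST7 and 5 in sgXIST9 in normoxia, and 9 in each in hypoxia. Of the 9 in hypoxia, 5 were higher and 4 lower in sgXIST7, and 7 were higher and 2 lower in sgXIST9. These are 11.5% and 9.62% of the list in normoxia, beside 7.76% and 7.7% of all genes, and 17.3% in each in hypoxia, beside 14% and 9.53%. Between the KD lines, 2 genes were called in normoxia (3.85%, beside 3.4% of all genes) and 3 in hypoxia (5.77%, beside 4.46%), all lower in sgXIST7, and these shares are near the background.

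Of the lactate transporters and their other chaperone, 4 genes were tested. SLC16A1 (MCT1), named here although no comparison called it, was at 239 ± 4.41 CPM in sgCtl normoxia and 301 ± 84.1 CPM in sgCtl hypoxia. SLC16A3 (MCT4), the lactate exporter that BSG chaperones, was at 50.3 ± 0.774 CPM in sgCtl normoxia and at 279 ± 62.5 CPM in sgCtl hypoxia. It rose in all 3 lines, with log2 fold changes of 2.47 ± 0.14, 2.17 ± 0.13 and 2.03 ± 0.13 in sgCtl, sgXIST7 and sgXIST9. SLC16A7 (MCT2), a high-affinity monocarboxylate transporter, was at 0.404 ± 0.0598 CPM in sgCtl normoxia against 19.1 ± 6.26 CPM in sgXIST7 normoxia and 17.8 ± 1.82 CPM in sgXIST9 normoxia. It was higher in both KD lines at both oxygen levels, by log2 fold changes from 4.99 to 5.86, and fell in hypoxia in sgXIST9 (-1.21 ± 0.27, adjusted p = 0.0011). EMB (embigin), a related chaperone named here after its values were seen, fell in sgCtl hypoxia, from 156 ± 2.91 to 64.3 ± 14.7 CPM. Its mean was also lower in hypoxia, without a call, in sgXIST7 (116 ± 7.76 to 85.9 ± 7.45 CPM) and sgXIST9 (98.4 ± 2.89 to 74.8 ± 8.63 CPM).

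Single subunits of the proton pump and other transporters moved in both directions in hypoxia. Of 21 subunits of the V-ATPase tested, the pump that acidifies vesicles, ATP6V1C2 rose in all 3 lines (log2 fold changes of 4.39, 5.29 and 3.67) and ATP6V1B1 fell in all 3 (-3.66, -2.71 and -1.95). Both were near the floor. ATP6V1C2 rose from 10, 21 and 23 counts a group in normoxia, and ATP6V1B1 fell to 8, 15 and 19 counts a group in hypoxia. ATP6V1D rose past the fold limit in sgCtl and sgXIST7, and was at 0.73 in sgXIST9 (adjusted p = 0.00024). ATP6V0A2 fell past the fold limit in sgXIST7 and sgXIST9, and was at -0.83 in sgCtl (adjusted p = 0.0032). In normoxia ATP6V0A2 was higher in both KD lines, by 1.40 in each. ATP6V1E2 was higher in both KD lines in hypoxia, by 1.06 and 1.20. Among 9 other genes of the bicarbonate transporter families tested, SLC4A11, a member that conducts protons or hydroxide and not bicarbonate, fell in all 3 lines (-1.38, -1.92 and -1.01) and SLC4A9 rose in all 3 from 2, 11 and 13 counts a group in normoxia. Of the sodium and proton exchangers, SLC9A7 was lower in both KD lines in normoxia (-1.18 and -1.12), and the scaffold SLC9A3R2 was higher (1.13 and 1.07).

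Of 11 other carbonic anhydrases, 3 passed the filter on low counts and 8 were not tested. All 3 were called between sgCtl and both KD lines in hypoxia, where 14% (sgXIST7) and 9.53% (sgXIST9) of all genes were called. CA8, which lacks enzyme activity, summed to 399 counts in sgCtl hypoxia, to 5 in sgXIST7 and to 4 in sgXIST9, and was lower in both (adjusted p = 8.4e-05 and 7.6e-05). It was listed at 0 in every KD normoxia library and at 11 counts over the sgCtl normoxia libraries. CA8 thus passed the filter only through sgCtl hypoxia, so its calls against that group were largely fixed in advance. CA14, a membrane enzyme, fell in sgCtl hypoxia by 2.16 on the log2 scale and was higher in both KD lines in hypoxia, by 2.80 ± 0.42 and 3.66 ± 0.42. CA11, which also lacks enzyme activity, rose in both KD lines in hypoxia, by 1.23 ± 0.13 and 1.03 ± 0.13, against 0.18 ± 0.13 in sgCtl. Among the families of proton-sensing receptors and channels, ASIC4 rose in all 3 lines, from 18, 4 and 4 counts a group in normoxia. It was lower in both KD lines in hypoxia (-1.89 and -2.27). The receptor GPR132 fell in sgCtl hypoxia (-2.43 ± 0.59) and rose in both KD lines (1.75 ± 0.52 and 2.18 ± 0.54), all from group means under 1 CPM.

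**Figure D4:**
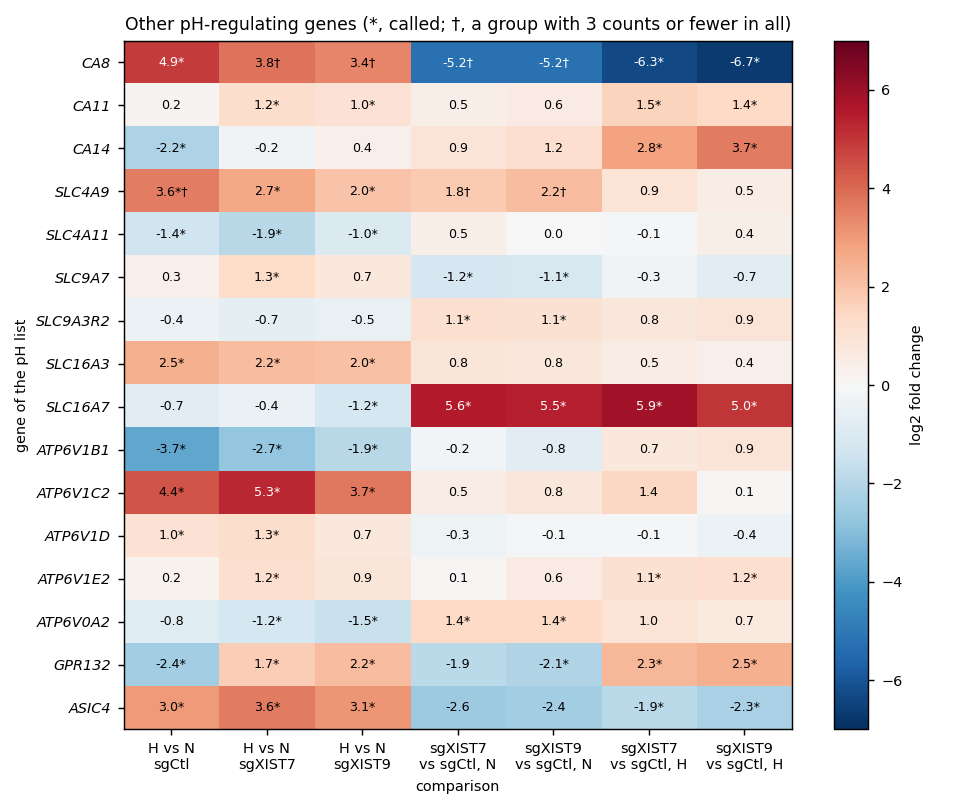
Log2 fold changes of the 16 pH-regulating genes outside the 8 members that met the naming rule, in hypoxia (H) against normoxia (N) within each line and in each KD line against sgCtl. Asterisks mark calls, and daggers mark values that depend on the prior count because a group held 3 counts or fewer in all. SLC16A3, ATP6V1C2 and ASIC4 are called higher in hypoxia in all 3 lines, and SLC16A7 is called higher in both KD lines at both oxygen levels.

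The genes most like CA9 and CA12 over the 18 libraries were ranked by the root mean square difference of their centred log2 CPM, among 13212 genes with a mean of at least 1 CPM. This is a description, and the libraries share lines and conditions. For CA9 the closest were LINC01132, ALDOC, TMEM45A, LRP2 and SPTBN5, at 1.07 to 1.24 log2 units, beside a median of 3.11 over all genes. ALDOC, a glycolytic aldolase, was at 2.01 ± 0.659 CPM in sgCtl normoxia, 106 ± 53.1 CPM in sgCtl hypoxia, 277 ± 74.6 CPM in sgXIST7 hypoxia and 324 ± 139 CPM in sgXIST9 hypoxia. Of these 5, TMEM45A and SPTBN5 had a higher mean in sgXIST7 than in sgXIST9 hypoxia. The means of CA9 were the other way round, but CA9 was not called between these groups. TMEM45A was at 260 ± 24.9 and 126 ± 16.3 CPM, and SPTBN5 at 31.2 ± 8.19 and 21.1 ± 4.37 CPM. For CA12 the closest were BCKDHA, RNMT, JARID2, UBA6-AS1 and LINC00938, at 0.25 to 0.28 log2 units, beside a median of 1.08.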

How the data were processed

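RNA was measured in 18 libraries of OVCAR3-KRAB cells, from rRNA-depleted stranded total RNA. After trimming (Trimmomatic) and alignment to hg38 (HISAT2), the authors counted reads with featureCounts and deposited raw counts per gene. The annotation, the strand setting and the tool versions are not given in the sources used here. Of 28279 lines, 2 were broken and held 0 counts, and 5287 genes had no count.

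Genes were tested with edgeR 4.0.16 (quasi-likelihood F-test, TMM factors, filterByExpr with a minimum of 10 counts and 15 in total) in 1 fit of 6 groups, which kept 14938 genes. P-values were Benjamini-Hochberg adjusted over these genes, and calls used the study's thresholds (adjusted p under 0.01, absolute log2 fold change above 1). CPM are TMM-normalized. Standard errors are the log2 fold change divided by the square root of its F. Intervals of count ratios are 95% and cover counting error only. The scripts were tested on simulated data. Alternatives included DESeq2 1.42.0, other factors and filters, a replicate block and leaving out libraries.

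Same-numbered replicates deviated together (correlation over 0.1 in all 3 pairs) for sgXIST7 against sgCtl in normoxia (0.15, 0.38 and 0.19) and sgXIST9 against sgCtl in hypoxia (0.2, 0.52 and 0.57). Beyond the 8 members, text names list genes called in 1 direction in at least 2 of the 3 hypoxia comparisons, or in both KD lines at 1 oxygen level. EMB and SLC16A1 are named outside this rule. CA2 overlaps CA3-AS1 with 0 shared exon bases. The members and lists were chosen with earlier results of these data known.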

Additional observations from a re-analysis of the deposited data

Results flagged for a closer look

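Of the interaction tests, 4 differed between lines past the threshold. For sgXIST9 against sgCtl these included 1 of 8 members. Of the 52 other pH regulators tested, 2 were called for sgXIST7 against sgCtl and 1 for sgXIST9 against sgCtl. These are 3.85% and 1.92% of the 52, beside 1.52% and 1.01% of all genes. The hypoxia response of SLC4A4 was larger in sgXIST9 than in sgCtl by 2.98 on the log2 scale, where sgXIST9 normoxia held 15 SLC4A4 counts in all and sgCtl normoxia 169. The response of CA11 was larger in sgXIST7 than in sgCtl by 1.05 on the log2 scale, from 59.4 ± 7.3 to 139 ± 9.1 CPM in sgXIST7 (SD, n = 3) and from 42.4 ± 4.58 to 48.1 ± 8.22 CPM in sgCtl. The response of GPR132 differed from sgCtl by 4.18 in sgXIST7 and by 4.61 in sgXIST9, both against the same sgCtl libraries, in which it went from 43 counts in normoxia to 8 in hypoxia. GPR132 summed to 16 and 49 counts in sgXIST7, and to 12 and 58 in sgXIST9. None of these calls held in every alternative. That of SLC4A4 was lost in 10 of 21, and with only the groups compared in the fit 0 of the other pH regulators (CA11 and GPR132 included) were called for either interaction with sgCtl. That count was also 0 in sgXIST7 without sgCtl normoxia replicate 1 or 3, sgCtl hypoxia replicate 2 or sgXIST7 normoxia replicate 2, and 0 in sgXIST9 without sgCtl normoxia replicate 3, sgCtl hypoxia replicate 2 or sgXIST9 normoxia replicate 1 or 2. Groups of 3 libraries are too small for a test of single outlying libraries.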

How the results depend on the processing

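Of 414 counts of called genes under an alternative, 346 stayed within 1.5 times the reported count, 32 were higher and 36 lower. The share of all genes called under each alternative is not given here. Whether the counts moved with that share was not tested. Of 1551 single fold changes, 1454 kept direction and side of the threshold, 25 were called where the reported value was not, 29 lost a call and 43 turned sign. None of the 43 that turned sign was called in the reported fit. The cause of these changes was not tested, beyond what each alternative does by construction.

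With only the groups compared in the fit, the count of members called was 1 for hypoxia in sgCtl (3 reported), 1 for sgXIST9 against sgCtl in hypoxia (2 reported, CA2 being lost) and 0 for the interaction of sgXIST9 and sgCtl (1 reported). CA9 then did not pass the filter on low counts for hypoxia in sgCtl, for either KD line against sgCtl in normoxia or between the KD lines in normoxia, nor did CA2 within or between the KD lines, so that these gave no value. With no fold limit it was 4 for hypoxia in sgXIST7 (2 reported). At an adjusted p under 0.05 it was 2 for sgXIST7 against sgCtl in normoxia (1 reported), and 1 each for sgXIST7 against sgXIST9 in hypoxia, for the interaction of sgXIST7 and sgCtl and for that of sgXIST7 and sgXIST9 (0 reported in each). DESeq2 gave 1 for sgXIST7 against sgXIST9 in hypoxia and 1 for their interaction. Without the replicate 3 libraries of hypoxia the count was 2 for each of these 3 comparisons with 0 reported. With 1 library left out, it ranged from 0 to 1 for sgXIST7 against sgCtl in normoxia, 1 to 2 for sgXIST9 against sgCtl in normoxia, 0 to 2 for sgXIST7 against sgXIST9 in hypoxia (2 without sgXIST9 hypoxia replicate 3), 0 to 1 for the interaction of sgXIST7 and sgCtl (1 without sgCtl hypoxia replicate 3), 0 to 1 for that of sgXIST9 and sgCtl, and 0 to 2 for that of sgXIST7 and sgXIST9 (2 without sgXIST9 hypoxia replicate 3).

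With the replicate block, SLC4A2 was called between sgXIST7 and sgXIST9 in hypoxia (1 member against 0). Same-numbered libraries of these groups correlated at 0.29, -0.07 and 0.49. Replicates 1 and 3 thus deviated together and replicate 2 did not, and whether the numbers pair these libraries was not tested. The block moved no other count by over 1.5 times. It turned 2 signs, CA2 for hypoxia in sgXIST7 (-0.017) and SLC4A2 for sgXIST9 against sgCtl in normoxia (-0.010).

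Among the 82 other genes of pH regulation, with no fold limit, 17, 22 and 23 were called for hypoxia in sgCtl, sgXIST7 and sgXIST9 (11, 13 and 12 reported), 10 for sgXIST9 against sgCtl in normoxia (5 reported), and 19 and 16 for sgXIST7 and sgXIST9 against sgCtl in hypoxia (9 reported in each). No share of all genes stands beside these counts or those that follow. At an adjusted p under 0.05, 14 were called for sgXIST7 against sgCtl in hypoxia and 3 for the interaction of sgXIST9 and sgCtl (1 reported), for which DESeq2 gave 2. With a mean of at least 1 CPM, 7 were called for hypoxia in sgXIST9, and 1 and 0 for the interactions of sgXIST7 and sgXIST9 with sgCtl (2 and 1 reported). With only the groups compared, 4 were called for sgXIST9 against sgCtl in hypoxia, 1 for sgXIST7 against sgXIST9 in hypoxia (3 reported), and 0 for either interaction with sgCtl. Without the replicate 3 libraries of hypoxia, 14 were called for sgXIST7 against sgCtl in hypoxia, 5 for sgXIST7 against sgXIST9 in hypoxia, and 8, 5 and 2 for the interactions of sgXIST7 and sgCtl, sgXIST9 and sgCtl, and sgXIST7 and sgXIST9. With 1 library left out, the range was 7 to 11 for hypoxia in sgXIST9 (7 without its normoxia replicate 2), 7 to 16 for sgXIST7 against sgCtl in hypoxia (16 without sgCtl hypoxia replicate 3), 0 to 7 for the interaction of sgXIST7 and sgCtl (7 without sgCtl hypoxia replicate 3) and 0 to 3 for that of sgXIST9 and sgCtl (3 without replicate 3 of either hypoxia group).

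The remaining signs that turned under an alternative follow, none of them called. CA13 for sgXIST9 against sgCtl in hypoxia was at 0.024 with upper-quartile factors, 0.012 with no filter, 0.0017 with only these groups and 0.040 without the replicate 3 libraries of hypoxia. SLC4A2 for sgXIST9 against sgCtl in normoxia was at -0.021 with upper-quartile factors. SLC4A4 for sgXIST7 against sgXIST9 in hypoxia was at 0.020 with DESeq2, 0.021 with median-of-ratios factors and 0.0043 with only these groups. SLC4A7 for the interaction of sgXIST7 and sgCtl was at 0.0025 with no filter. With 1 library left out, log2 fold changes for hypoxia ranged from -0.22 to 0.50 for CA2 in sgXIST7, -0.037 to 0.17 for CA13 in sgCtl, -0.19 to 0.43 for SLC4A2 in sgXIST9 and -0.20 to 0.059 for SLC4A4 in sgXIST7. Against sgCtl, those of sgXIST9 ranged from -0.24 to 0.48 for CA12 and -0.18 to 0.11 for CA13 in hypoxia, and from -0.091 to 0.077 for SLC4A2 in normoxia. Between sgXIST7 and sgXIST9 they ranged in normoxia from -0.18 to 0.40 for CA9, -0.075 to 0.13 for CA13 and -0.10 to 0.039 for SLC4A7, and in hypoxia from -0.64 to 0.17 for CA9 and -0.31 to 0.40 for SLC4A4. Interactions with sgCtl ranged from -0.89 to 2.48 for CA9 and -0.11 to 0.063 for SLC4A7 in sgXIST7, and from -0.44 to 2.93 for CA9 and -0.54 to 0.18 for CA12 in sgXIST9. The direction of the CA9 interactions turned without sgCtl normoxia replicate 1, the library with the single CA9 count of that group. Depth limits CA9 in sgCtl and sgXIST9 normoxia, CA2 in sgXIST7 at both oxygen levels and in sgXIST9 normoxia, and SLC4A4 in sgXIST9 normoxia, where the groups sum to 15 counts or fewer. CA9 in sgXIST7 normoxia, which sums to 16 counts, is limited likewise.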
